A study of Mus musculus with 24 samples.

Results

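The liver breaks down most amino acids of the diet and turns their nitrogen into urea, and the transcripts of 50 enzymes of these pathways are described here across 4 diets. The members are the rows of the deposited count table whose symbol is on a list of amino acid catabolism and urea cycle genes. All 50 were among the 13686 genes of the table, and all 50 passed the filter on low counts, as 11971 genes did. They were sorted by role into 11 groups: the breakdown of tyrosine (4 genes), tryptophan (5), histidine (3), sarcosine and dimethylglycine (2), lysine (3), branched-chain amino acids and propionyl-CoA (13), proline (3), serine and glycine (4), transaminases with glutamate dehydrogenase (5), the urea cycle (6) and glyoxylate transaminases (2).

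The mice were wild-type males of the inbred laboratory strain C57BL/6, fed for 6 weeks with chow or with 1 of 3 oil-enriched diets. CSO stands for cottonseed oil, OO for olive oil and SFO for safflower oil. QuantSeq libraries, which count tags from the 3′ ends of polyadenylated RNA, were made from liver RNA. The labels name 6 samples per diet, and 23 libraries were analysed: 6 of chow, 6 of CSO, 6 of OO and 5 of SFO, since the submitters left out SFO 4 as an outlier with possible contamination. Whether samples of a diet came from separate cages or days is not stated, so the p-values rest on the spread between samples alone, which may be technical. The mice's ages and the composition of the diets are not given in the labels. In the comparisons with chow, the oil therefore cannot be told apart from anything else in which the diets may differ.

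Amino acid breakdown begins with the removal of nitrogen, mostly by transaminases that pass the amino group to glutamate. Glutamate dehydrogenase then frees it as ammonia inside mitochondria, and the urea cycle joins ammonia and the nitrogen of aspartate into urea for excretion. The carbon skeletons go on to glucose, ketone bodies or the citric acid cycle. In hepatocytes these enzymes are unevenly placed along the liver lobule, with the urea cycle strongest around the portal vein, and their transcripts are known to respond to protein intake, fasting hormones and glucocorticoids.

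Values below are CPM (each count as a share of its library's total after a TMM composition factor) or log2 differences ± SE from edgeR's quasi-likelihood test. This SE was derived as the size of the difference over the square root of the test's F statistic. A gene is called where its Benjamini-Hochberg adjusted p over the 11971 tested genes is under 0.05. Library totals ran from 5.43e+06 to 1.49e+07 counts. All 11 hepatocyte markers on a fixed list were present in every diet, with summed levels of 129435 to 165709 CPM in chow and 159389 to 209822 in OO. Skeletal muscle markers (14 listed, 13 tested) varied widely between libraries of the same diet. Their summed level was 11.1 to 3150 CPM in chow and 3.41 to 1412 in CSO. It was 0.534 to 19.8 CPM in OO and 0.359 to 70.9 in SFO. The muscle actin Acta1 was above 100 CPM in chow 3, 4 and 5 and in CSO 1, so results are also given without these 4 muscle-bearing libraries. At 5000000 counts the OO libraries held 10930 ± 409 detected genes (SD, n = 6), against 11960 ± 95.5 in chow. In bulk tissue, fewer cells of a type and less RNA per cell cannot be told apart.

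Across the 50 genes, the pattern was of a few moderate differences against a steady background, as the map of all members by library shows. OO livers had the most calls against chow, with 7 of 50 members higher and 0 lower, where 1.72% of all tested genes were called higher and 0.919% lower. CSO livers had 1 member higher (Gpt2) and 1 lower (Gldc), beside 0.209% and 0.200% of tested genes. By the same edgeR test SFO livers had 0 in either direction, beside 0.493% and 0.342%, with 6 members at an unadjusted p under 0.05 and 0 by DESeq2. The median within-diet SD of the members was 0.300 on the log2 scale. Over all tested genes it was 0.916, and over the 2103 abundant genes, those whose mean log2 CPM reached 6 and which include 43 members, it was 0.349. Of these abundant genes 7.66% were called higher and 1.09% lower in OO against chow. In CSO the shares were 1.14% and 1.05%, and in SFO 2.14% and 1.43%. Aldh7a1 (0.171), Hgd (0.178), Got2 (0.179) and Gpt2 (0.180) varied least within diets, and Acmsd (1.29), Sdsl (1.24) and Auh (0.657) most; these 7 were picked by that spread. Acmsd and Sdsl had as few as 7 and 9 counts in a library, so only large differences would be detectable in them.

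**Figure D1:**
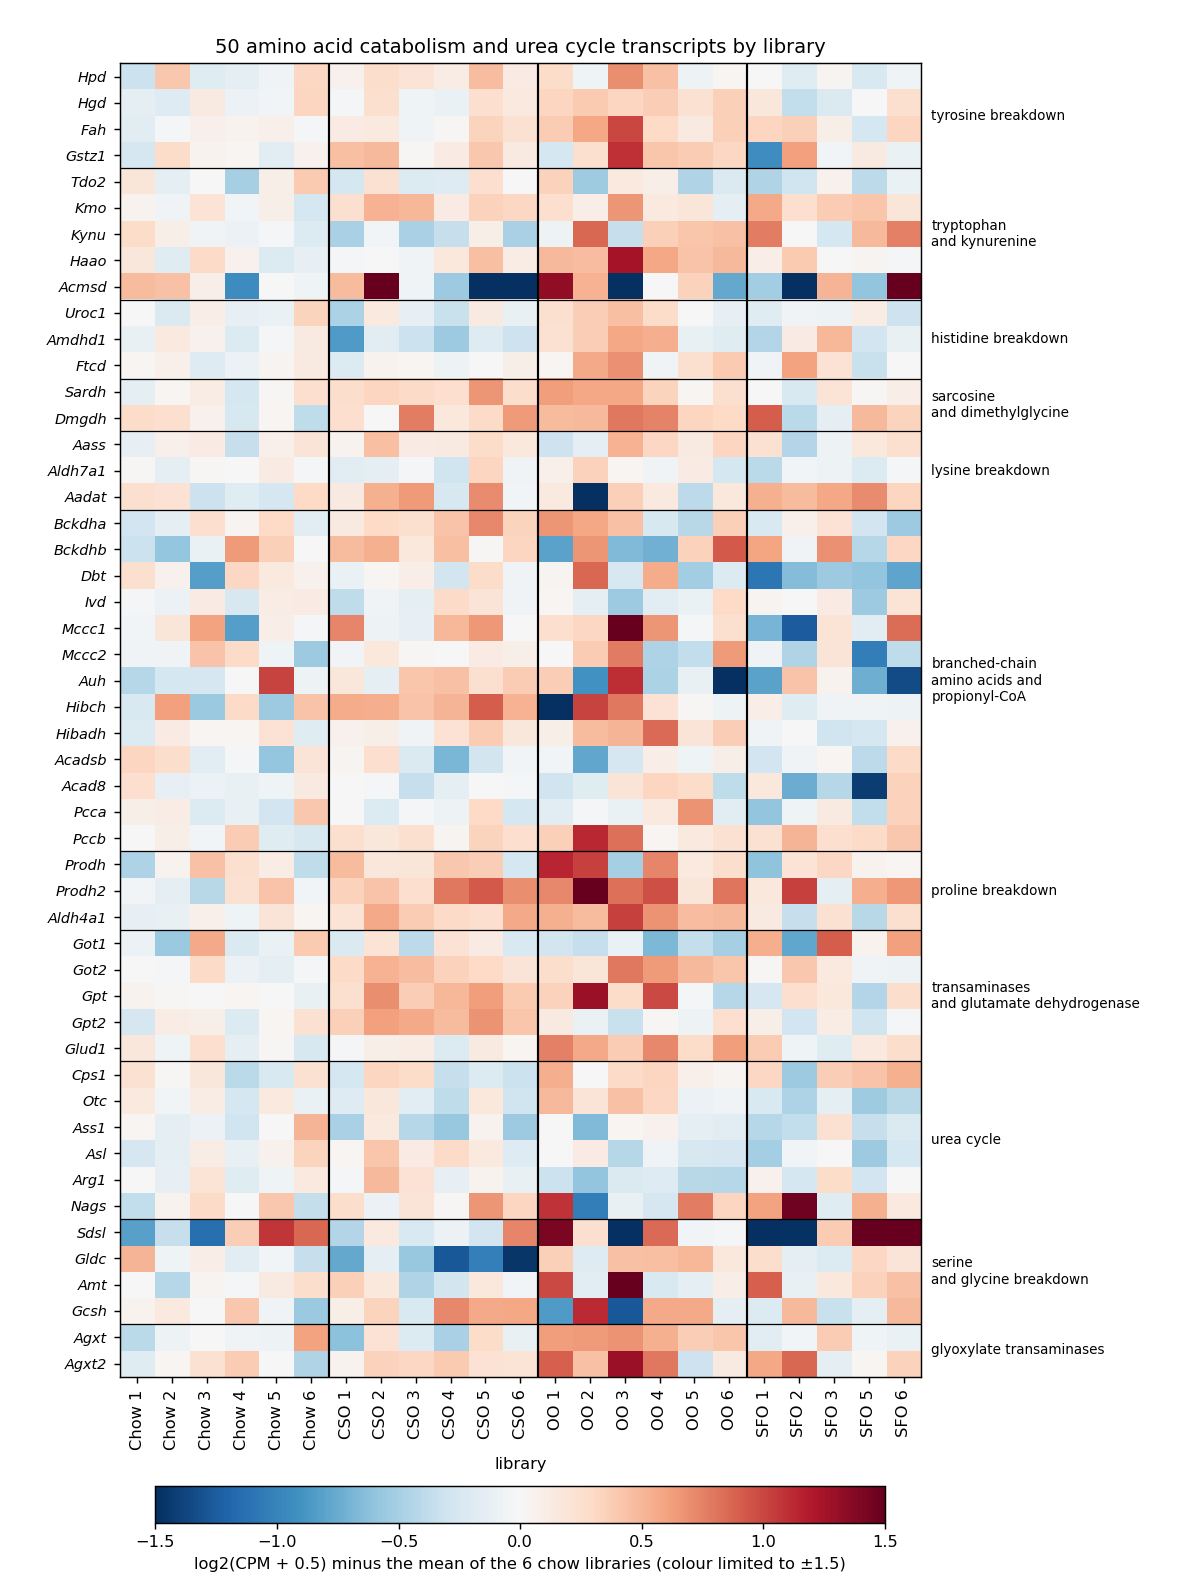
Each row is 1 of the 50 members, grouped by role, and each column 1 of 23 libraries; colour is log2(CPM + 0.5) minus the mean of the 6 chow libraries. Most members are red in the OO columns (40 of 50 differences from chow are positive), Gpt2 is red in all 6 CSO columns, Gldc is blue there, and Acmsd and Sdsl change colour from library to library within every diet.

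Promoters of the members with the steadiest calls are shown to let a reader compare them: Gldc and Gpt2, which set CSO apart from the other diets, and Glud1 and Prodh2, which were called in OO under every planned setting. RefSeq's promoter table (GRCm38.p6) held 42 of the 50 members. The 250 bases before each start site are printed 5′ to 3′ on the gene's strand, and capitals mark CpG dinucleotides. The windows are chr19:30175442-30175691 (minus strand) for Gldc, chr8:85492326-85492575 (plus) for Gpt2, chr14:34310477-34310726 (plus) for Glud1 and chr7:30493408-30493657 (plus) for Prodh2.
Gldc: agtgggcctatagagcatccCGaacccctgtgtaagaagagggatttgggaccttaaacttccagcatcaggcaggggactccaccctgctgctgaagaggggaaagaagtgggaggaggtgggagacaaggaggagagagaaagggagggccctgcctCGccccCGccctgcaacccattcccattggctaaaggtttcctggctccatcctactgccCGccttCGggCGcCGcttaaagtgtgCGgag
Gpt2: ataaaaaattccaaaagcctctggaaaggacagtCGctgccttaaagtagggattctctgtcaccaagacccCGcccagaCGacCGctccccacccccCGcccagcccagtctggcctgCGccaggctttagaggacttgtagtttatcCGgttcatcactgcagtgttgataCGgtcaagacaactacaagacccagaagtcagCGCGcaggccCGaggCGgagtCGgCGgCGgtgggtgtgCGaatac
Glud1: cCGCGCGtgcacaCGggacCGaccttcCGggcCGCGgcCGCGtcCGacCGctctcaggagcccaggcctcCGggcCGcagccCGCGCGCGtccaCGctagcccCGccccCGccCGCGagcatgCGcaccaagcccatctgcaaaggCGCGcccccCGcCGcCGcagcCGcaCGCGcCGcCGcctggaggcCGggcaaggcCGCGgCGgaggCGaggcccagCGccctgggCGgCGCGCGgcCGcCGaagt
Prodh2: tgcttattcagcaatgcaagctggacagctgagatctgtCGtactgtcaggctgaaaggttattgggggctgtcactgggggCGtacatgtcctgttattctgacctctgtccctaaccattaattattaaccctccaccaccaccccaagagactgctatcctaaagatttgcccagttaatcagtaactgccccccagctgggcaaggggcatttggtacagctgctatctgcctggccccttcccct
The windows differ in make-up, with 8 CpG in Gldc, 16 in Gpt2, 46 in Glud1 and 2 in Prodh2, against a median of 6 over all 32851 windows and 8 over the 46 windows of members. Neither the pair that differed in CSO nor the pair that rose in OO was alike in CpG content. None of the 4 windows held, on either strand, any of 5 motifs searched. These were TGATGNAA (the core of the C/EBP-ATF response element), TGACGTCA (the cyclic AMP response element), CACGTG (the E-box), CAAAGTCCA (a core of HNF4 sites) and TGTTCT (a glucocorticoid response element part). They occur in 3.45%, 1.55%, 6.02%, 0.384% and 16.1% of all windows and in 2.17%, 0%, 4.35%, 6.52% and 8.70% of the members' windows. The 3 windows with the HNF4 letters belong to Aadat and Agxt2, which were named for this match after it was seen. Such matches describe letters and are not evidence of binding.

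The comparison of the CSO diet with chow gave 2 calls. Gpt2, the mitochondrial alanine transaminase that links alanine to pyruvate, rose, and Gldc, the glycine-decarboxylating subunit of the glycine cleavage system, fell. The 1 higher call among 50 members stands beside 0.209% of all tested genes called higher, and the 1 lower call beside 0.200% called lower. Of the abundant genes, which include 43 members, 1.14% were called higher and 1.05% lower.

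Gpt2 had a lowest, median and highest level of 437, 542 and 606 CPM in the 6 chow livers and of 663, 746 and 829 CPM in the 6 CSO livers. In OO the same values were 411, 508 and 618 CPM, and the 5 SFO livers had 549, 426, 560, 420 and 510 CPM. Every CSO liver was therefore above every liver of the other 3 diets. The log2 difference from chow was 0.51 ± 0.13 (adjusted p = 0.0428), a 1.43-fold level. This call lies near the threshold: it was lost in 11 of 12 omissions of a single library, all but that of chow 6, with an adjusted p of up to 0.176 and a difference of 0.47 to 0.56. It was also lost under library totals, without the filter, with a replicate block, and without the 4 muscle-bearing libraries (0.51 ± 0.17, adjusted p = 0.661).

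Gldc ranged from 129 to 233 CPM in chow (median 158) and from 59.3 to 148 CPM in CSO (median 88.0). OO livers had 143 to 230 CPM (median 216), and SFO livers 196, 148, 142, 203 and 187 CPM. The CSO livers lay below the rest with a small overlap, because CSO 2, at 148 CPM, reached into the range of every other diet. The log2 difference between CSO and chow was −0.83 ± 0.20 (adjusted p = 0.0339), a change of −43.9%. Leaving out chow 1, 2, 3 or 5 or CSO 1, 4, 5 or 6 ended the call, with an adjusted p of up to 0.176 and differences of −1.01 to −0.71. Without the 4 muscle-bearing libraries the difference was −0.90 ± 0.26 (adjusted p = 0.322).

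**Figure D2:**
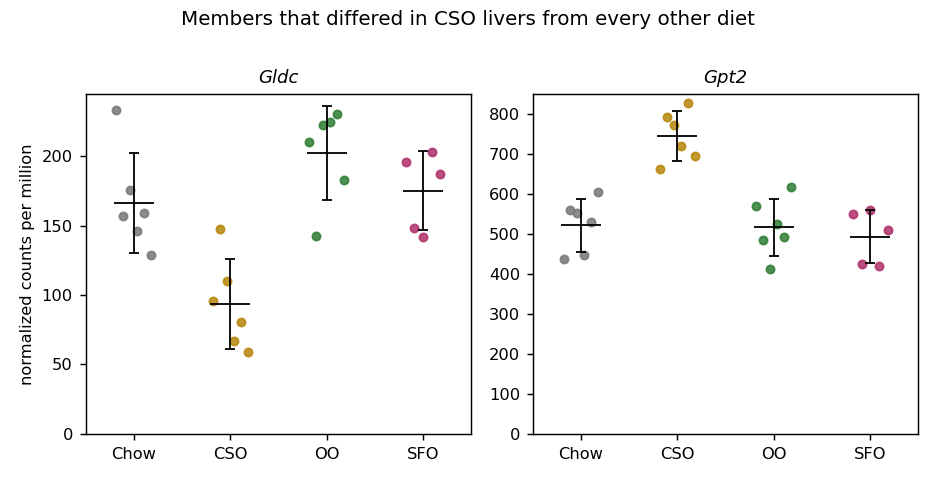
Normalized CPM of Gldc and Gpt2 in each liver (points) by diet, with mean and SD (black). The 6 CSO livers lie at 663 to 829 CPM for Gpt2, above all 17 others, and at 59.3 to 148 CPM for Gldc, mostly below them.

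The other 48 members were not called in CSO against chow, and 12 of the 50 (24%) had an unadjusted p under 0.05, against 5.32% of all tested genes and 14.8% of abundant ones. The members' median difference was 0.13, against −0.02 over all tested genes and 0.04 over the abundant ones. Of the members 31 of 50 were positive, beside 48.0% of all tested genes and 55.9% of abundant ones. Proline breakdown (median 0.38), sarcosine and dimethylglycine (0.35) and the transaminases (0.35) had the highest group medians, and the other 3 members of the glycine group ranged from −0.21 to 0.35 in CSO. In the authors' deposited table for this comparison the same 2 members passed an adjusted p of 0.05, Gpt2 at 0.51 and Gldc at −0.84.

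The OO diet, compared with chow, gave 7 called members, all higher, and 0 lower. They were Fah, Haao, Sardh, Prodh2, Aldh4a1, Got2 and Glud1, which act in tyrosine, tryptophan, sarcosine, hydroxyproline, proline, aspartate and glutamate breakdown. Of all tested genes, 1.72% were called higher and 0.919% lower in OO, and of the 2103 abundant genes, which are closer to the members in level, 7.66% were called higher. The 7 calls all fell among the 43 abundant members.

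Glud1, mitochondrial glutamate dehydrogenase, ranged from 996 to 1407 CPM in chow (median 1158) and from 1425 to 1993 CPM in OO (median 1786). CSO livers had 1026 to 1293 CPM (median 1230), and SFO livers 1530, 1122, 1035, 1303 and 1415 CPM. The OO livers did not overlap with those of chow or CSO. The log2 difference from chow was 0.56 ± 0.11 (adjusted p = 0.00381), a 1.47-fold level. It was called in each of 12 omissions of a single library, but not without the 4 muscle-bearing libraries (0.60 ± 0.15, adjusted p = 0.0712).

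Proline breakdown was the group with the largest median in OO (0.62). Prodh2, the dehydrogenase of hydroxyproline, had 112, 145 and 202 CPM as lowest, median and highest level in chow and 169, 263 and 457 CPM in OO. In CSO it had 178, 222 and 282 CPM, and in the SFO livers 167, 304, 136, 218 and 235 CPM. Chow and OO overlapped through OO 5 alone, the OO liver with the least Prodh2, and OO 2 was the highest. The log2 difference was 0.89 ± 0.19 (adjusted p = 0.00737), the largest among the 50 members in OO, and it was called in each of 12 omissions.

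Aldh4a1, the mitochondrial dehydrogenase that ends proline and hydroxyproline breakdown by making glutamate or a related product, ranged from 352 to 436 CPM in chow (median 377) and from 528 to 780 CPM in OO (median 544). In CSO it ranged from 439 to 565 CPM (median 482), and the SFO livers had 420, 301, 448, 286 and 451 CPM. Neither OO nor CSO overlapped with chow. Only the OO difference was called, at 0.62 ± 0.14 (adjusted p = 0.00780). Prodh, the proline dehydrogenase itself, was not called in OO (0.54 ± 0.20, adjusted p = 0.138). It is named only to complete the proline group.

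Aromatic amino acid breakdown gave 2 calls in OO. Haao, a dioxygenase of the kynurenine pathway of tryptophan, ranged from 341 to 478 CPM in chow (median 384) and from 528 to 929 CPM in OO (median 548). CSO livers had 377 to 538 CPM (median 407), and SFO livers 420, 515, 394, 404 and 386 CPM. All OO livers were above all chow livers, with OO 3 far above the rest, and the difference was 0.63 ± 0.14 (adjusted p = 0.00971).

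Fah, which carries out the last step of tyrosine breakdown, ranged from 672 to 794 CPM in chow (median 767) and from 830 to 1510 CPM in OO (median 979). In CSO it ranged from 727 to 955 CPM (median 828), and the SFO livers had 942, 966, 802, 631 and 944 CPM. Again OO and chow did not overlap, and OO 3 was highest, with a difference of 0.49 ± 0.13 (adjusted p = 0.0279). Without OO 3 the call on Fah was lost, as it was without chow 1, 2 or 4 (adjusted p of up to 0.0965, difference 0.36 to 0.55). Tdo2, the dioxygenase that opens the kynurenine pathway, was not called in OO, with a difference of −0.09 ± 0.14 (adjusted p = 0.803), nor was Hpd, an upstream dioxygenase of tyrosine breakdown, at 0.22 ± 0.12 (adjusted p = 0.387).

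Sardh and Got2 were the weakest of the 7. Sardh, the mitochondrial sarcosine dehydrogenase, had 909 to 1305 CPM in chow (median 1113), 1302 to 1730 in CSO (median 1330), 1121 to 1692 in OO (median 1509) and 1096, 933, 1262, 1108 and 1171 in the SFO livers. Got2, the mitochondrial aspartate transaminase, had 296 to 401 CPM in chow (median 323), 375 to 473 in CSO (median 409), 371 to 570 in OO (median 448) and 333, 434, 364, 315 and 311 in the SFO livers. In both genes the CSO livers were about as high as the OO livers, and OO overlapped with chow. The OO differences were 0.41 ± 0.12 for Sardh (adjusted p = 0.0448) and 0.47 ± 0.13 for Got2 (adjusted p = 0.0428).

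Sardh lost its call in 9 of 12 omissions, without chow 1, 2, 3, 4 or 5 or OO 1, 2, 3 or 4 (adjusted p of up to 0.124, difference 0.36 to 0.47). Got2 lost it in 7, without chow 1, 2, 4, 5 or 6 or OO 3 or 4 (adjusted p of up to 0.0981, difference 0.40 to 0.53). Both were also lost with DESeq2's size factors, with only the 2 diets fitted and with a replicate block. None of the 7 kept its call without the 4 muscle-bearing libraries, where 3 chow libraries remain, and their differences were then 0.36 to 0.99. Calls among all tested genes also fell in that fit, from 206 higher and 110 lower to 18 higher and 8 lower.

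**Figure D3:**
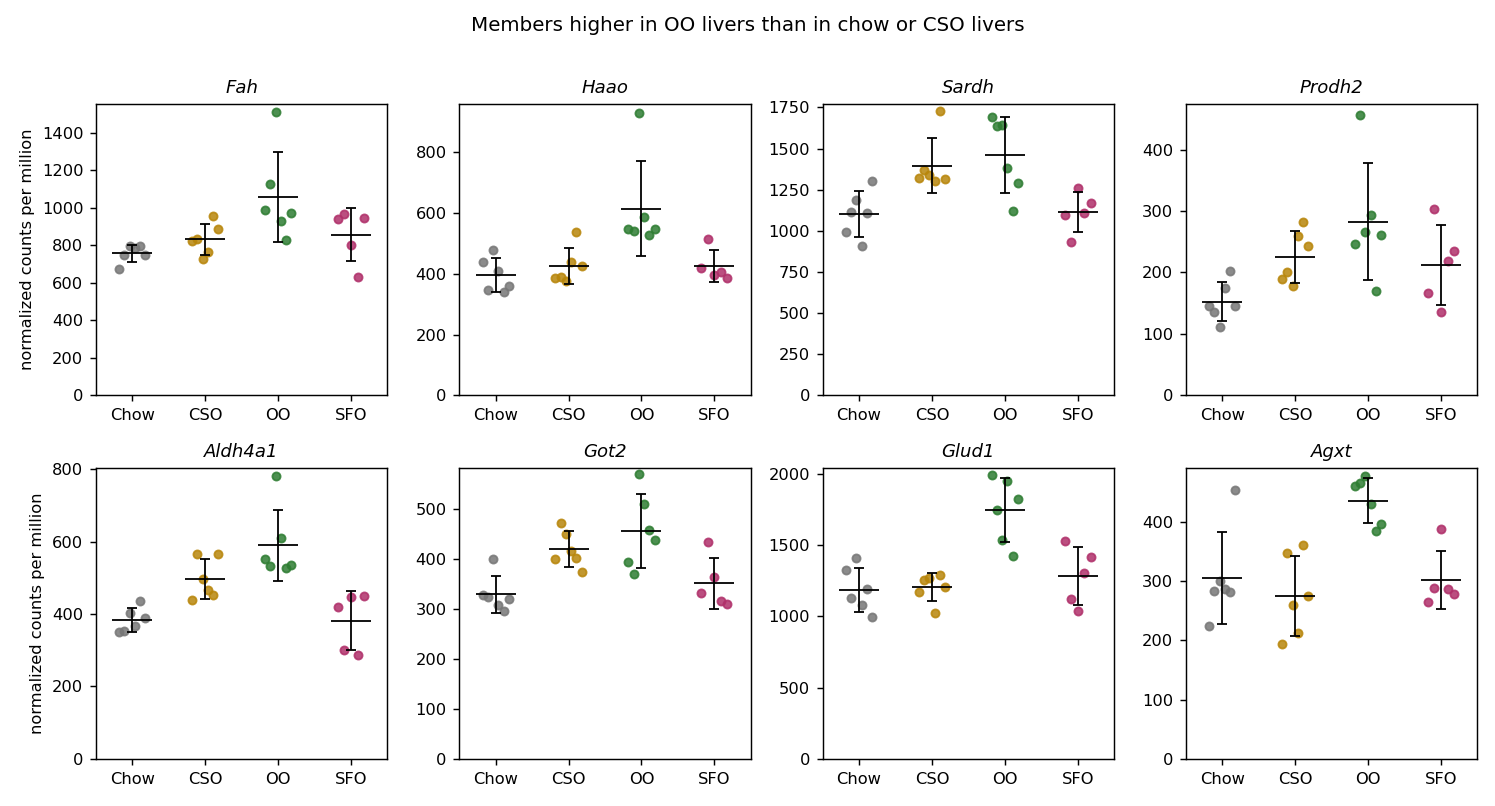
Normalized CPM of 8 members in each liver (points) by diet, with mean and SD (black). In Fah, Haao, Aldh4a1 and Glud1 the OO livers lie above all 6 chow livers, in Agxt and Glud1 above all 6 CSO livers, and OO 3 is the highest point of Fah, Haao, Aldh4a1 and Got2.

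These OO calls depended in part on how libraries were scaled. The members held the same part of raw counts in all diets: 2.34 ± 0.14% in chow, 2.41 ± 0.17% in CSO, 2.39 ± 0.13% in OO (SD, n = 6 each) and 2.29 ± 0.15% in SFO (n = 5). TMM factors, which correct for a few very abundant genes taking up counts, were 0.923 ± 0.078 in OO and 1.05 ± 0.036 in chow. The summed level of the members was accordingly 26100 ± 2608 CPM in OO and 22347 ± 1697 in chow. With library totals in place of TMM, the median of all tested genes in OO against chow moved by −0.19, and those called went from 206 higher and 110 lower to 62 higher and 162 lower.

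Under library totals 2 members were higher in OO, Prodh2 (0.69 ± 0.19, adjusted p = 0.0444) and Glud1 (0.37 ± 0.10, adjusted p = 0.0469), and 1 was lower, Arg1 (−0.55 ± 0.11, adjusted p = 0.00333). The other 5 kept a positive difference of 0.21 to 0.43 without passing the test. The median of the members relative to that of all genes was 0.15 under both scalings. Their median of 0.22 in OO, with 40 of 50 positive, also lay close to the 0.20 of all abundant genes, 74.0% of which were positive.

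**Figure D4:**
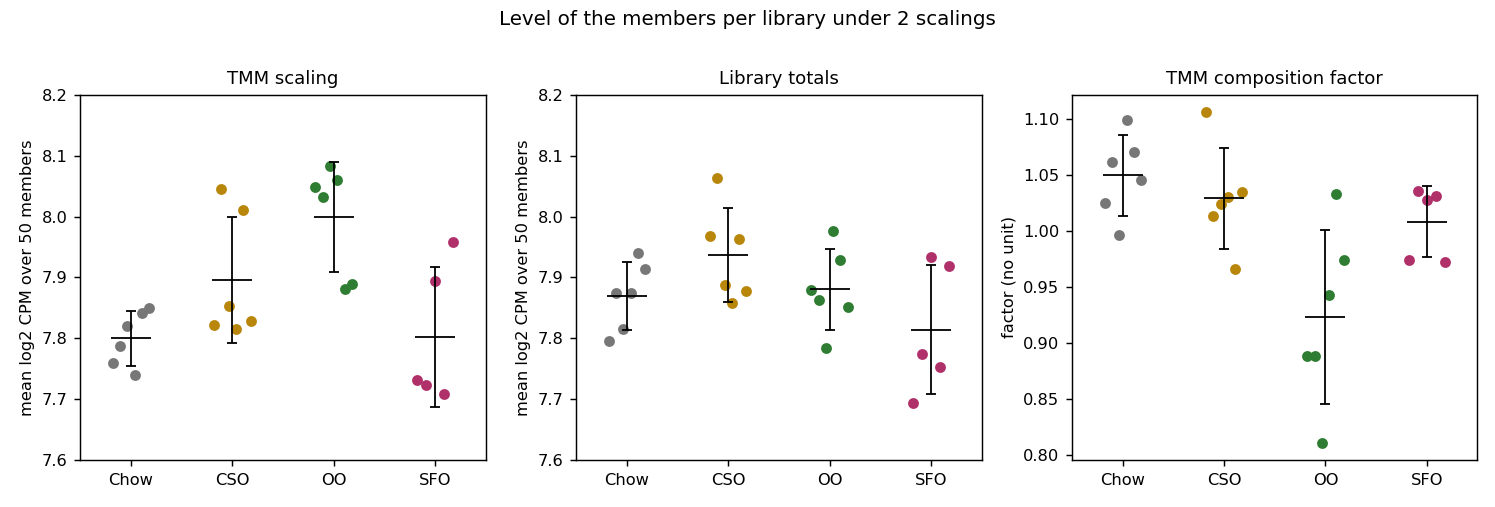
Mean log2 CPM over the 50 members per library with TMM scaling (left) and with library totals (middle), and the TMM factor of each library (right), by diet with mean and SD. Under TMM the OO livers lie at 7.88 to 8.08 and the chow livers at 7.74 to 7.85, with library totals the means are 7.88 and 7.87, and 4 of 6 OO factors lie below every other library.

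In the authors' deposited table for OO and chow, 9 members had an adjusted p under 0.05, all higher in OO. They included the 7 described, with Prodh2 at 0.88 and Glud1 at 0.55, and added Agxt (0.51) and Hibadh (0.42). Markers of pericentral hepatocytes, the cells around the central vein, moved with this comparison: 5 of 12 were called higher and 0 lower, with a summed level of 7691 to 11674 CPM in chow and 11450 to 17748 in OO. Of 12 periportal markers 1 was called higher and 1 lower, with sums of 6548 to 9558 CPM in chow and 5816 to 7794 in OO. Of all tested genes 1.72% were called higher and 0.919% lower in OO, and of abundant ones 7.66% and 1.09%. In CSO against chow 2 of the 12 pericentral markers were called higher, beside 0.209% of all tested genes and 1.14% of abundant ones. The part of these markers in the results was not tested.

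SFO livers had 0 of 50 members called against chow by edgeR's test, beside 0.493% of tested genes called higher and 0.342% lower. At an unadjusted p under 0.05 there were 6 of 50, against 7.74% of all tested genes and 15.8% of abundant ones, and DESeq2's test also called 0. The median difference of the members was 0.00, with 25 of 50 positive, beside 53.5% of abundant genes. The authors' deposited table for SFO likewise held 0 members at an adjusted p under 0.05. Dbt, a core subunit of the branched-chain ketoacid dehydrogenase, had a difference of −0.77 ± 0.23 (adjusted p = 0.130), which passed the threshold only when chow 3 was left out (−0.89 ± 0.23, adjusted p = 0.0440).

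The urea cycle itself showed no called member against chow in any diet under TMM scaling, while under library totals Arg1 was called lower in OO. The mean level over the 6 urea cycle genes was 9.49 ± 0.13 log2 CPM in chow, 9.48 ± 0.18 in CSO, 9.47 ± 0.20 in OO (SD, n = 6 each) and 9.46 ± 0.08 in SFO (n = 5). This mean averages over opposite signs: in OO 3 differences from chow were positive and 3 negative, from −0.36 to 0.26. Cps1, which makes carbamoyl phosphate from ammonia and commits nitrogen to the cycle, ranged from 2721 to 4222 CPM in chow (median 3849), from 2831 to 4525 in CSO (median 3076) and from 3612 to 5251 in OO (median 4107). The SFO livers had 4490, 2472, 4654, 4831 and 5221 CPM. All 4 diets overlapped, and SFO 2 was the lowest library of all.

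Nags, which makes the activator that Cps1 requires, ranged from 51.1 to 87.5 CPM in chow, 62.5 to 105 in CSO, 32.1 to 141 in OO and 58.4 to 183 in SFO. Ass1, which joins citrulline and aspartate, ranged from 1155 to 2026 CPM in chow, 964 to 1581 in CSO, 902 to 1493 in OO and 1055 to 1670 in SFO. Asl, which splits off fumarate and leaves arginine, ranged from 424 to 633 CPM in chow, 439 to 671 in CSO, 375 to 549 in OO and 346 to 504 in SFO. None of these 3 genes was called in any of the 7 comparisons.

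Otc and Arg1, at the cycle's second and last steps, differed between oils. Otc, which makes citrulline, ranged from 536 to 711 CPM in chow (median 659), from 491 to 724 in CSO (median 569) and from 605 to 902 in OO (median 765), and the SFO livers had 550, 464, 582, 445 and 482 CPM. All OO livers were above all SFO livers, with a difference of −0.58 ± 0.14 in SFO against OO (adjusted p = 0.0276). That call was lost without SFO 2 or 5 (adjusted p of up to 0.0796, difference −0.64 to −0.52), without the 4 muscle-bearing libraries (−0.57 ± 0.15, adjusted p = 0.0687) and under library totals (−0.44 ± 0.12, adjusted p = 0.0800).

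Arg1, the arginase that releases urea, ranged from 1102 to 1437 CPM in chow (median 1226), from 1146 to 1744 in CSO (median 1257) and from 827 to 1091 in OO (median 967). SFO livers had 1303, 1034, 1515, 1026 and 1240 CPM. All OO livers were below all chow and all CSO livers. The CSO level was higher than that of OO by 0.45 ± 0.12 (adjusted p = 0.0412). OO against chow was −0.36 ± 0.12 (adjusted p = 0.0795), and under library totals −0.55 ± 0.11 (adjusted p = 0.00333). The CSO call was lost in 7 of 12 omissions, without CSO 1, 2, 3 or 5 or OO 1, 2 or 6 (adjusted p of up to 0.125, difference 0.36 to 0.49). It was also lost with only these diets fitted (adjusted p = 0.0835) and without the 4 muscle-bearing libraries (0.47 ± 0.13, adjusted p = 0.108). Under library totals it was 0.61 ± 0.11 (adjusted p = 0.000953).

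**Figure D5:**
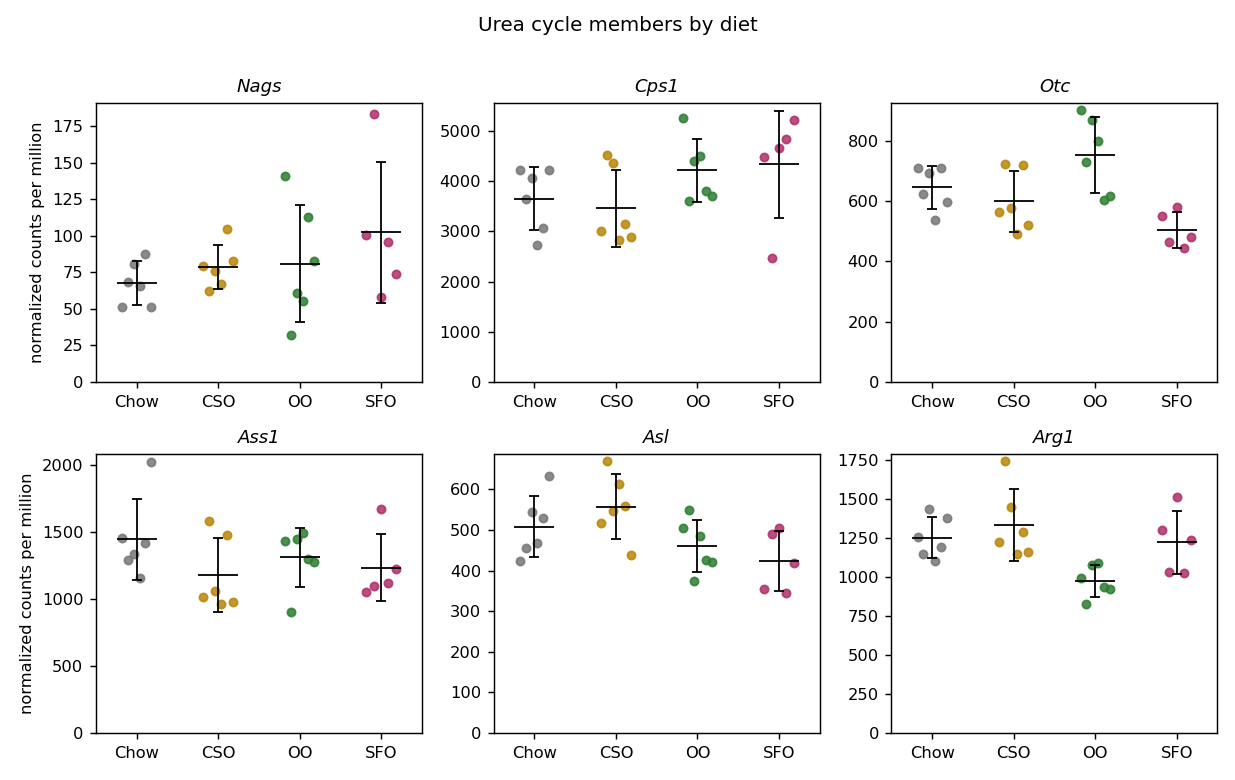
Normalized CPM of the 6 urea cycle members in each liver (points) by diet, with mean and SD (black). The diets overlap for Nags, Cps1, Ass1 and Asl, the 5 SFO livers (445 to 582 CPM) lie below the 6 OO livers (605 to 902 CPM) for Otc, and the OO livers (827 to 1091 CPM) lie below chow and CSO for Arg1.

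Between the oils, CSO against OO gave 6 calls. Gpt2 and Arg1 were higher in CSO, and Gldc, Agxt, Glud1 and Haao were lower. Among all tested genes 0.251% were called higher and 0.835% lower, and among the abundant ones 0.666% higher and 3.38% lower. This comparison shares the OO libraries with OO against chow and the CSO libraries with CSO against chow, so its calls are not separate evidence of them.

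The difference in Gldc between CSO and OO, −1.11 ± 0.20 (adjusted p = 0.000653), was the largest of any member, a change of −53.8% in CSO. It was called in each of 12 omissions, in all other settings tried and without the 4 muscle-bearing libraries (−1.13 ± 0.22, adjusted p = 0.00718). Gpt2 was higher in CSO by 0.53 ± 0.13 (adjusted p = 0.0205), a call lost without CSO 5 (adjusted p = 0.0568) and without the 4 libraries (0.56 ± 0.14, adjusted p = 0.0596).

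Agxt, the peroxisomal alanine-glyoxylate transaminase that clears glyoxylate, a product of hydroxyproline breakdown, ranged from 195 to 361 CPM in CSO (median 267) and from 385 to 477 CPM in OO (median 445). Chow livers had 225 to 453 CPM (median 285), and SFO livers 265, 289, 388, 286 and 279 CPM. OO was above CSO without overlap, and the difference was −0.66 ± 0.16 (adjusted p = 0.0218). It lost the call without CSO 1, 3, 4 or 6 (adjusted p of up to 0.0943, difference −0.76 to −0.58), without the 4 libraries (−0.59 ± 0.17, adjusted p = 0.134) and under library totals (−0.51 ± 0.15, adjusted p = 0.0916).

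Glud1 was lower in CSO than in OO by −0.54 ± 0.11 (adjusted p = 0.00791) and was called in each of 12 omissions and without the 4 libraries, but not under library totals (−0.38 ± 0.10, adjusted p = 0.0636). Haao was lower by −0.53 ± 0.14 (adjusted p = 0.0482). Its call was lost in 7 of 12 omissions, without CSO 1, 2, 3, 4 or 6 or OO 3 or 4 (adjusted p of up to 0.165, difference −0.61 to −0.37), and in 6 of the other settings. Without OO 3, whose 929 CPM stands above the other OO livers, the difference in Haao was the smallest of these.

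Against SFO, CSO livers showed the same pair as against chow. The CSO libraries enter both comparisons, so these calls are not separate evidence. Gpt2 was higher by 0.60 ± 0.13 (adjusted p = 0.0165), a 1.51-fold level, and Gldc was lower by −0.91 ± 0.20 (adjusted p = 0.0177), a change of −46.7%. The share of all tested genes called was 0.284% higher and 0.209% lower, and of abundant ones 1.43% and 0.761%. The Gpt2 call was lost without CSO 5, SFO 2 or SFO 5 (adjusted p of up to 0.0954, difference 0.54 to 0.65), and that of Gldc without CSO 4, 5 or 6 or SFO 1 or 5 (adjusted p of up to 0.0891, difference −1.09 to −0.81). Leaving out the 4 libraries kept Gpt2 (0.62 ± 0.15, adjusted p = 0.0445) and not Gldc (−0.93 ± 0.23, adjusted p = 0.0645).

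Against the mean of OO and SFO, which uses most libraries and asks what sets cottonseed oil apart from the other oils, the same 2 members were called. All libraries of this comparison also enter those of CSO with OO and with SFO, so these calls are not separate evidence. Gpt2 was higher by 0.56 ± 0.11 (adjusted p = 0.00210) and Gldc lower by −1.01 ± 0.18 (adjusted p = 0.000571). Of tested genes 0.342% were called higher and 0.384% lower, and of abundant ones 1.05% and 1.62%. Gpt2 and Gldc kept their call in each of 17 omissions of a single library, in all other settings tried and without the 4 muscle-bearing libraries (0.59 ± 0.12 and −1.03 ± 0.21). The adjusted p ranged from 0.00153 to 0.0133 for Gpt2 and from 9.16e-05 to 0.00571 for Gldc over these omissions.

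SFO against OO gave 4 calls, all lower in SFO: Dbt, Hibadh, Aldh4a1 and Otc. Of all tested genes 0.267% were called higher and 0.794% lower, and of the abundant ones 3.28% lower. The 13 genes of branched-chain amino acid breakdown held 2 of the 4 calls and had a median of −0.32, with 3 of 13 positive. For all 50 members the median was −0.26, with 12 positive, against −0.19 over abundant genes, 29.3% of which were positive. Pericentral markers had lower values in SFO than in OO too (median −0.38, 9 of 12 negative, 2 called lower and 0 higher), with a summed level of 8685 to 11850 CPM in SFO. In CSO against OO their median was −0.35, with 8 of 12 negative and 1 called lower. Their part in the differences between oils was not tested.

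Dbt ranged from 65.1 to 143 CPM in chow (median 125), from 95.2 to 140 in CSO (median 115) and from 80.5 to 211 in OO (median 110), and the SFO livers had 54.4, 73.6, 79.4, 76.5 and 66.7 CPM. The 5 SFO livers were below all CSO and all OO livers, and chow 3 was the only chow liver within their range. The difference from OO was −0.89 ± 0.23 (adjusted p = 0.0408). Hibadh, a dehydrogenase of valine breakdown, ranged from 408 to 690 CPM in OO (median 512) and had 368, 381, 311, 319 and 400 CPM in SFO. Chow livers had 332 to 444 CPM (median 391) and CSO livers 369 to 499 (median 418). OO and SFO did not overlap in Hibadh, which differed by −0.54 ± 0.14 (adjusted p = 0.0455), and Aldh4a1 differed by −0.63 ± 0.14 (adjusted p = 0.0215), also without overlap.

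The 4 calls of SFO against OO also depended on single libraries and settings. Dbt was lost in 7 of 11 omissions, without OO 2 or 4 or SFO 1, 2, 3, 5 or 6 (adjusted p of up to 0.115, difference −0.99 to −0.69). Hibadh was lost in 7, without OO 2, 3 or 4 or SFO 1, 2, 3 or 5 (adjusted p of up to 0.118, difference −0.60 to −0.43), and Aldh4a1 in 3, without OO 3 or SFO 2 or 5 (adjusted p of up to 0.0800, difference −0.70 to −0.53). None of the 4 was called with only these diets fitted, without the 4 muscle-bearing libraries or under library totals. Among all tested genes 1 was called higher and 1 lower with only these diets fitted, against 32 and 95 in the main fit. Without the 4 libraries 8 were higher and 29 lower, and under library totals 33 and 23. Under library totals 2 other members were called instead, both higher in SFO: Arg1 (0.46 ± 0.11, adjusted p = 0.0485) and Got1, the cytosolic aspartate transaminase (0.87 ± 0.20, adjusted p = 0.0320), the latter named after its values were seen.

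Of the members with the most counts in their role group, 5 were called in none of the comparisons: Cps1, given above, and Ftcd, Aldh7a1, Hpd and Tdo2. Ftcd, of histidine breakdown, had means of 489 ± 39.9 CPM in chow, 482 ± 34.6 in CSO, 615 ± 124 in OO (SD, n = 6 each) and 531 ± 134 in SFO (n = 5), with an OO difference of 0.33 ± 0.14 (adjusted p = 0.201). Aldh7a1, of lysine breakdown, had 499 ± 28.1 CPM in chow, 483 ± 74.4 in CSO, 518 ± 71.9 in OO and 452 ± 47.7 in SFO. Hpd had 1754 ± 364 CPM in chow, 1995 ± 208 in CSO, 2047 ± 460 in OO and 1633 ± 131 in SFO, and all 6 CSO livers were above all 5 SFO livers without a call (0.29 ± 0.13, adjusted p = 0.566). Tdo2 had 1459 ± 292 CPM in chow, 1421 ± 229 in CSO, 1366 ± 328 in OO and 1227 ± 187 in SFO. The diets overlapped in every pair for these 4 genes except Hpd in CSO and SFO.

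Other genes of the pathways, 73 tested genes for amino acid carriers, nitrogen handling, further breakdown enzymes and regulators, were tested in the same fit. In CSO against chow 1 was higher and 0 lower, where 0.209% of all tested genes and 1.14% of abundant ones were called higher. In OO against chow 5 were higher and 0 lower, where 1.72% of all tested genes and 7.66% of abundant ones were called higher. In SFO against chow 0 were called by edgeR's test, where 0.493% of all tested genes were called higher and 0.342% lower. At an unadjusted p under 0.05 there were 4 of 73, against 7.74% of all tested genes and 15.8% of abundant ones. Hsd17b10, a mitochondrial dehydrogenase of isoleucine breakdown, was higher in CSO (0.92 ± 0.20, adjusted p = 0.0121) and in OO (0.75 ± 0.19, adjusted p = 0.0284) than in chow. Its means were 129 ± 24.5 CPM in chow, 243 ± 72.1 in CSO, 216 ± 51.8 in OO and 120 ± 29.7 in SFO. Cdo1, which oxidizes cysteine, and Glul, glutamine synthetase of the pericentral cells, rose in OO by 0.52 ± 0.12 (adjusted p = 0.00995) and 0.57 ± 0.15 (adjusted p = 0.0321). Glul is also on the pericentral marker list, so it is counted in both places.

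Between oils, all called related genes but Hsd17b10 in CSO against SFO were lower in the first oil. In CSO against OO 3 were lower and 0 higher: Atf5 (−1.08 ± 0.17, adjusted p = 0.000121), a transcription factor of the ATF4 family that responds to amino acid shortage and mitochondrial stress, Cdo1 (−0.73 ± 0.12, adjusted p = 0.000218) and Cbs (−0.72 ± 0.17, adjusted p = 0.0268), which starts cysteine synthesis. Atf5 had 388 ± 96.7 CPM in chow, 248 ± 43.1 in CSO, 523 ± 113 in OO and 530 ± 153 in SFO. Its CSO level was also lower against SFO (−1.10 ± 0.18, adjusted p = 0.000167) and in CSO against the OO-SFO mean (−1.09 ± 0.15, adjusted p = 1.56e-05). In CSO against SFO 1 related gene was lower (Atf5) and 1 higher (Hsd17b10, 1.02 ± 0.21, adjusted p = 0.00566). Against the mean of OO and SFO 4 were lower and 0 higher. In CSO against OO 0.835% of all tested genes and 3.38% of abundant ones were called lower. In CSO against SFO the shares were 0.209% and 0.761% lower, and 0.284% and 1.43% higher. Against the mean they were 0.384% and 1.62% lower.

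In SFO against OO 4 related genes were lower and 0 higher, led by Oat (−0.75 ± 0.16, adjusted p = 0.0122), which ties ornithine to proline and glutamate. Next were Shmt2 (−0.70 ± 0.16, adjusted p = 0.0265), the mitochondrial serine-glycine enzyme, and Hsd17b10 (−0.84 ± 0.21, adjusted p = 0.0313). Oat had 823 ± 209 CPM in chow, 878 ± 179 in CSO, 1150 ± 233 in OO and 683 ± 98.4 in SFO. The OO mean was the highest for Oat and for Shmt2 (303 ± 57.3 CPM against 211 ± 31.2 in chow). In SFO against OO 0.794% of all tested genes and 3.28% of abundant ones were called lower. Oat is also on the pericentral marker list, so it is counted in both places.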

How the data were processed

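The submitters' processing notes name Trimmomatic, STAR 2.7.1a, HTSeq 0.9.1, DESeq2, DESeq and the build mm39. No source used here gives the strand setting of the counting. The authors deposited raw counts per gene (13686 genes, smallest total count 51) for 23 libraries. They also deposited tables of chow against each oil diet, which hold a mean signal per gene, a log2 fold change and its standard error, a test score and p-values; their fold changes are chow over oil and were reversed here.

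For the analysis edgeR 4.0.16, DESeq2 1.42.0 and limma 3.58.1 ran under R 4.3.3. The filter filterByExpr kept 11971 genes with 99.9% of counts. Libraries were TMM scaled, all 4 diets entered a single fit of diet alone, and 7 comparisons tested with the robust quasi-likelihood F test, adjusted by Benjamini-Hochberg over all tested genes at 0.05. Log2 CPM used a prior count of 2. The procedure was tested on simulated data, for OO against chow only and with changes larger than most of those called here. That test therefore does not cover smaller changes. Single-gene precision is set by 5 or 6 libraries per diet.

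Members, lists and tests were chosen with earlier results of these data known. Named were members called in any comparison, the most counted member of each role, the 6 urea cycle genes and up to 3 related genes per comparison with the smallest adjusted p; others are named with the reason. Of the marker lists for other cells, those of Kupffer, endothelial, stellate, bile duct, pancreas, fat, red blood and kidney cells summed to at most 349, 475, 517, 110, 95.1, 222, 212 and 6.49 CPM in any library. Alternatives were DESeq2's size factors, library totals, DESeq2's Wald test, no filter, only the diets compared, a replicate block and each library left out; a fit without the 4 muscle-bearing libraries (Acta1 above 100 CPM) was added after seeing the data. Promoter sequences are from RefSeq (GRCm38.p6), a build other than that of the counts, and were matched by symbol. Plots used matplotlib 3.10.9 and Python 3.11.15.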

Additional observations from a re-analysis of the deposited data

Results flagged for a closer look

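Dixon's ratio on log2 CPM was taken in 92 sets, each of one gene, or of the mean over members, in one diet. In 9 of these sets, all of single genes, a single library stood apart. Chance gives about 1 in 20. Fah was 672 CPM in chow 1 (next 746). Haao was 929 CPM in OO 3 (next 587). Sardh was 1730 CPM in CSO 5 (next 1369). Dbt was 65.1 CPM in chow 3 (next 121). Aldh4a1 was 780 CPM in OO 3 (next 609). Got2 was 401 CPM in chow 3 (next 327). Cps1 was 2472 CPM in SFO 2 (next 4490). Ass1 was 902 CPM in OO 2 (next 1280). Agxt was 388 CPM in SFO 3 (next 289). Chow 3, with muscle transcripts, and OO 3, with the lowest TMM factor (0.811), appear among them in 2 genes each.

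The effects of 2 oils relative to chow differed by edgeR's test in 12 cases. Between CSO and OO the log2 differences were −0.53 for Haao, 0.53 for Gpt2, −0.54 for Glud1, 0.45 for Arg1, −1.11 for Gldc and −0.66 for Agxt. Between CSO and SFO they were 0.60 for Gpt2 and −0.91 for Gldc. Between SFO and OO they were −0.89 for Dbt, −0.54 for Hibadh, −0.63 for Aldh4a1 and −0.58 for Otc.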

How the results depend on the processing

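Of 23 called differences of members, 0 changed sign in 441 alternatives computed for them, 8 were called in every omission of a single library and 15 were lost in at least one. The differences were picked for passing the test and the alternatives reuse the same libraries, so a change of sign was unlikely beforehand. Counts of called members moved more. CSO against chow (2 called) gave 1 under library totals, without the filter and with a replicate block, 4 with only the diets compared, and 0 without the 4 muscle-bearing libraries. OO against chow (7) gave 3 under library totals (2 higher, 1 lower), 4 with only the diets compared, 0 without the 4 libraries, and 5 with a replicate block. CSO against OO (6) gave 3 under library totals and 2 without the 4 libraries, and CSO against SFO (2) gave 1 without them. SFO against OO (4 lower) gave 2 with DESeq2's size factors, 2 under library totals (both higher), 7 with DESeq2's test (1 higher, 6 lower), 0 with only the diets compared, 2 with a replicate block and 0 without the 4 libraries. CSO against the OO-SFO mean (2) gave 4 with DESeq2's test. Omissions of a single library gave 0 to 2 calls for CSO against chow, 4 to 11 for OO against chow, 0 to 1 for SFO against chow, 3 to 7 for CSO against OO, 0 to 2 for CSO against SFO, 0 to 7 for SFO against OO and 2 to 3 for CSO against the mean. Calls among all tested genes moved with these settings too. Without the 4 libraries they went from 206 higher and 110 lower to 18 and 8 in OO against chow. In CSO against chow they went from 25 and 24 to 5 and 9. SFO against OO had 32 and 95, which became 1 and 1 with only the diets compared and 199 and 241 with DESeq2's test. Omissions and single-comparison fits use fewer samples. Otherwise the cause was not tested. Same-numbered samples showed no shared deviations from their diet means. Over 33 same-numbered pairs the correlation of deviations was −0.043 to 0.053, and 3 of 23 libraries were closest to one of their own number. Whether the numbers stand for cages or days is not stated. Library totals moved the median of all genes by −0.19 in OO against chow, 0.16 in CSO against OO and 0.13 in SFO against OO, and the replicate block by −0.12 in OO against chow and 0.14 in CSO against OO. Depth limits Acmsd and Sdsl, with as few as 7 and 9 counts in a library.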
